A study of Mus musculus with 3 samples.

Results

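Granzymes, perforin and the receptors and ligands that go with them are the genes with which lymphocytes kill other cells. Here a list of 10 genes, called the cytotoxic genes, was followed in the kidney of Aoah-/- and WT mice after folic acid (FA) injury. It held the granzymes Gzma, Gzmb and Gzmk, the pore-forming protein Prf1, the granule membrane protein Nkg7, the receptors Klrk1 and Klrd1 and the death ligand Fasl. It also held the chemokine receptor Ccr9 and the transcription factor Eomes, which do not themselves kill cells. The 10 genes were taken by symbol from the 27998 genes of the count matrices, and all 10 were found. Their unique molecular identifiers (UMIs, one for each captured RNA molecule) were summed per library within 4 classes of lymphocyte that were defined by marker genes: natural killer (NK)-like, CD8 T-like, CD4 T-like and regulatory T-like cells. The rule that lists the genes uses none of their measured values.

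Cytotoxic lymphocytes store perforin and granzymes in secretory granules and release them toward a bound target cell, where perforin opens the membrane and granzymes, which are serine proteases, cleave proteins inside. FASL on the lymphocyte surface can also kill through the receptor FAS on the target. NK cells carry RNA of granule genes already in the resting state, CD8 T cells gain it after activation, and most CD4 and regulatory T cells make little. The libraries measure RNA and not protein.

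The libraries were droplet-based 3′ scRNA-seq of kidneys of mice 6 to 8 weeks old, collected 14 days after FA, which damages the tubules. There were 2 Aoah-/- libraries, replicates 2 and 3, and 1 WT library, replicate 3. Aoah encodes acyloxyacyl hydrolase, an enzyme that inactivates bacterial lipopolysaccharide. The Aoah-/- mice lack the gene in all cells, had been backcrossed to the C57BL/6J strain, and were compared with WT littermates, and every mouse had received FA, so no uninjured kidney was compared. A single WT library allows no test between genotypes and gives no replicate check of the WT values. Differences are therefore described by the values, their counting intervals and the spread of the Aoah-/- pair, as a standard deviation (SD).

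The deposited libraries held 25516, 24693 and 23072 cell barcodes (Aoah-/- 2, Aoah-/- 3 and WT 3, the order of all triplets of values from here on) with 167222984, 161015021 and 158551992 UMIs. The shallowest barcode held 500, 1672 and 500 UMIs, so cells had not been called alike. Of the barcodes, 59262 passed the filters, and 171 to 176 of the barcode sequences were shared between any pair of libraries, among T and NK cells at most 3. Aoah, the targeted gene, was at 6.75, 6.19 and 18.2 UMIs per 1000000 (CPM) over all cells that passed. It was lower in both Aoah-/- libraries but not absent, and where the deletion lies relative to the 3′ reads was not examined.

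T and NK clusters held 2387, 2398 and 1590 cells, 11.2%, 12.2% and 8.74% of the cells of each library. NK-like cells expressed Ncr1 and Klrb1c without CD3 genes and numbered 157, 137 and 163. CD8 T-like cells, with Cd8a and Cd8b1 and without Cd4, numbered 919, 902 and 355. CD4 T-like cells numbered 278, 290 and 282, and regulatory T-like cells, with Foxp3, numbered 93, 165 and 89. The remaining T or NK cells kept no name for the most part, because their subclusters mixed CD4 and CD8 cells or were led by genes of tubular cells, macrophages, cell division or stress, and 1 subcluster of 126 cells, led by Il4, was low in both Cd4 and Cd8 genes and met no naming rule. They made up 37.6%, 34.4% and 38.5% of the T and NK cells of each library. The thresholds for naming were set after the data had been seen, and the 10 genes were left out of the clustering. No doublet caller was run.

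Position and upstream sequence of the granule genes are given first because the granzymes and perforin carry most of the results. In the GRCm38 annotation Gzma (chr13:113093825-113100981, minus strand) and Gzmk (chr13:113171608-113225908, minus strand) lie near each other, while Gzmb (chr14:56258838-56262260, minus strand) and Prf1 (chr10:61297833-61304680, plus strand) lie on other chromosomes. Klrd1 (chr6:129591782-129598775, plus strand) and Klrk1 (chr6:129610323-129623864, minus strand) are neighbours on opposite strands in the NK receptor gene complex. Nkg7 is at chr7:43437073-43438249 and Fasl at chr1:161780689-161788495. Both Eomes (chr9:118478212-118486132) and Ccr9 (chr9:123678439-123784330) are on the plus strand of chromosome 9.

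RefSeq's promoter table (GRCm38.p6) held 9 of the 10 genes, and its 250 bases before the start site are printed here for the granule genes, 5′ to 3′ on the strand of the gene. Capitals mark the letters TGTGGT or their reverse complement ACCACA, a core motif of Runx factors, and AGGTGT or ACACCT, a core motif of T-box factors, the family of Eomes and Tbx21. Both motifs were searched on both strands and do not overlap each other.
Gzma: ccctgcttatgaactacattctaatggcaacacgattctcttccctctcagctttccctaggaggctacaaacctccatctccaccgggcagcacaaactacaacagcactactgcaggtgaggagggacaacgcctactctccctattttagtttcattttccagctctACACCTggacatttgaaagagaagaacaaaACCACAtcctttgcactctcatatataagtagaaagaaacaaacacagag
Gzmb: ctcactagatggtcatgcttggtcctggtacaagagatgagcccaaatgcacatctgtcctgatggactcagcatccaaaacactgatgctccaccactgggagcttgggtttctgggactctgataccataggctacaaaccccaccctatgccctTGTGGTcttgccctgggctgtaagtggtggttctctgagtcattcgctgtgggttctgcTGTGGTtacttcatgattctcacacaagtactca
Gzmk: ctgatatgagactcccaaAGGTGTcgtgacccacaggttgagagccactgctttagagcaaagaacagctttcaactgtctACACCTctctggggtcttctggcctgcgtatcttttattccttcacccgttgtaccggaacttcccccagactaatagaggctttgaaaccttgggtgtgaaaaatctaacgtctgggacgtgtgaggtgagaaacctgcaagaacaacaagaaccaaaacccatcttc
Prf1: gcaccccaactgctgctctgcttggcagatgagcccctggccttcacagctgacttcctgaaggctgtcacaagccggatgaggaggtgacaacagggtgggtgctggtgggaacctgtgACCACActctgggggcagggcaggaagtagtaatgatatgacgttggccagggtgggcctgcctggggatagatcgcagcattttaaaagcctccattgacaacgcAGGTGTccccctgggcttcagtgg
These windows are chr13:113100982-113101231 for Gzma, chr14:56262335-56262584 for Gzmb, chr13:113180966-113181215 for Gzmk, which lies inside the longer annotated span of that gene, and chr10:61297586-61297835 for Prf1. The Gzma window held a T-box core 80 bases and a Runx core 50 bases before the start site. The Gzmb window held Runx cores at 93 and 34 bases and no T-box core, and the Gzmk window held T-box cores at 232 and 169 bases and no Runx core. Prf1 had a Runx core at 130 bases and a T-box core at 24 bases. Of the 9 genes with a promoter, 5 held the Runx core (Gzma, Gzmb, Klrk1, Nkg7 and Prf1), against 14.0% of all 32851 promoters in the table, and 4 held the T-box core (Gzma, Gzmk, Nkg7 and Prf1), against 11.8%. These matches describe letters in a window and are not evidence of binding.

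Most UMIs of 9 of the 10 genes came from T and NK clusters, and each gene had its own spread over the classes. Gzma was above all an NK transcript: 50.4%, 41.3% and 62.8% of its UMIs in all cells lay in the NK-like cells and 27.5%, 29.0% and 14.7% in the CD8 T-like cells. Prf1 was spread alike, with 43.6%, 44.5% and 70.9% in NK-like cells and 29.9%, 26.5% and 10.8% in CD8 T-like cells. Gzmk, by contrast, was a CD8 transcript, with 64.4%, 56.6% and 64.9% of its UMIs in CD8 T-like cells and at most 1.14% in NK-like cells. For Eomes and Nkg7 the larger part lay in CD8 T-like cells in the Aoah-/- libraries (58.0% and 45.8% for Eomes, 54.9% and 47.6% for Nkg7), and in WT the CD8 share of Nkg7 was 38.6%, while Eomes was divided between NK-like (35.3%) and CD8 T-like cells (30.5%).

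These shares move with the number of cells of each class. The CD8 T-like cells were 38.5% and 37.6% of T and NK cells in the Aoah-/- libraries and 22.3% in WT, and the NK-like cells 6.58%, 5.71% and 10.3%. Over all T and NK clusters together, Gzmk was at 131, 117 and 51.8 CPM and Eomes at 98.8, 75.4 and 50.3 CPM, both higher in the Aoah-/- libraries than in WT. Gzma, at 1091, 1040 and 1022 CPM, and Prf1, at 37.0, 34.3 and 37.4 CPM, differed less. Such sums over mixed classes do not tell the number of cells of a class from the level within it, so the classes are also given one by one.

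**Figure D1:**
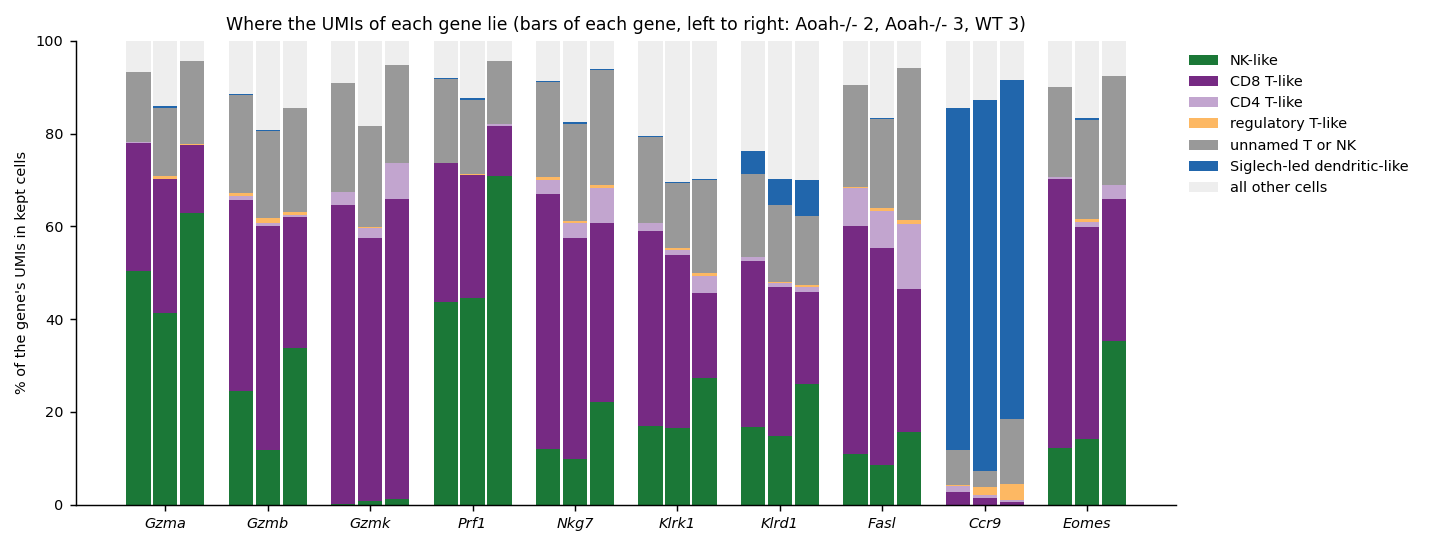
Share of each gene's UMIs (%, y axis) that came from each class of cell, with 1 stacked bar per library for each of the 10 genes. Gzma and Prf1 are led by NK-like cells, Gzmk by CD8 T-like cells, and Ccr9 by dendritic cells led by Siglech, with 73.8%, 79.8% and 73.2% of its UMIs.

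The order of the classes differed from gene to gene. Gzma fell from NK-like (8888 to 10335 CPM) to CD8 T-like cells (935 to 1188 CPM), with CD4 T-like (2.39 to 39.6 CPM) and regulatory T-like cells (3.33 to 116 CPM) overlapping each other far below. Prf1 kept to the same order, with 305 to 366 CPM in NK-like, 24.9 to 40.7 CPM in CD8 T-like and at most 1.66 CPM in CD4 and regulatory T-like cells. The granule protease Gzmb was at 682 to 760 CPM in NK-like and 225 to 452 CPM in CD8 T-like cells, and CD4 T-like (7.18 to 17 CPM) lay below regulatory T-like cells (24.0 to 49.7 CPM), with counting intervals that overlapped. In each of these 3 genes the NK-like and CD8 T-like libraries did not overlap.

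Gzmk had a different order. It was highest in CD8 T-like cells (209 to 312 CPM), next in CD4 T-like cells (32.3 to 40.9 CPM), and was barely seen in NK-like cells (4.45 to 23.9 CPM, from 2 to 11 UMIs) or regulatory T-like cells (at most 3.32 CPM). After each cell had been thinned to 1000 UMIs, which removes differences in depth, at most 0.730% of NK-like cells held a Gzmk UMI. The share was up to 0.442% in B-like or tubular cells, so the NK share was close to theirs. Where the UMIs of such cells come from was not tested.

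Nkg7, which takes part in granule release, was at 3020 to 3090 CPM in NK-like and 2380 to 2694 CPM in CD8 T-like cells, and was also detected in CD4 T-like (417 to 615 CPM) and regulatory T-like cells (141 to 263 CPM), with no overlap of neighbouring classes. Klrk1 encodes NKG2D, a receptor for stress ligands, and was at 838 to 858 CPM in NK-like and 252 to 401 CPM in CD8 T-like cells. Klrd1 encodes CD94, which pairs with the receptors encoded by the Klrc genes and not with NKG2D, and was at 818 to 882 CPM and 276 to 353 CPM in the same classes. For both receptors the CD4 and regulatory T-like libraries overlapped, with 3.33 to 63.4 CPM for Klrk1 and 3.33 to 24.9 CPM for Klrd1.

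Fasl was not confined to NK-like and CD8 T-like cells. It was at 284 to 296 CPM in NK-like, 249 to 260 CPM in CD8 T-like and 126 to 147 CPM in CD4 T-like cells, and regulatory T-like cells were lowest (3.33 to 30.9 CPM). Eomes, the T-box factor of NK and memory-type CD8 T cells, was at 234 to 265 CPM in NK-like and 98.6 to 214 CPM in CD8 T-like cells, with CD4 (4.95 to 13.2 CPM) and regulatory T-like cells (0 to 9.95 CPM) overlapping. Ccr9, the receptor for the gut chemokine CCL25, was listed at 0 in the NK-like cells of every library, where 3 counts would be 6.16 to 6.67 CPM, and reached 51.4 CPM at most, in the regulatory T-like cells of WT.

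**Figure D2:**
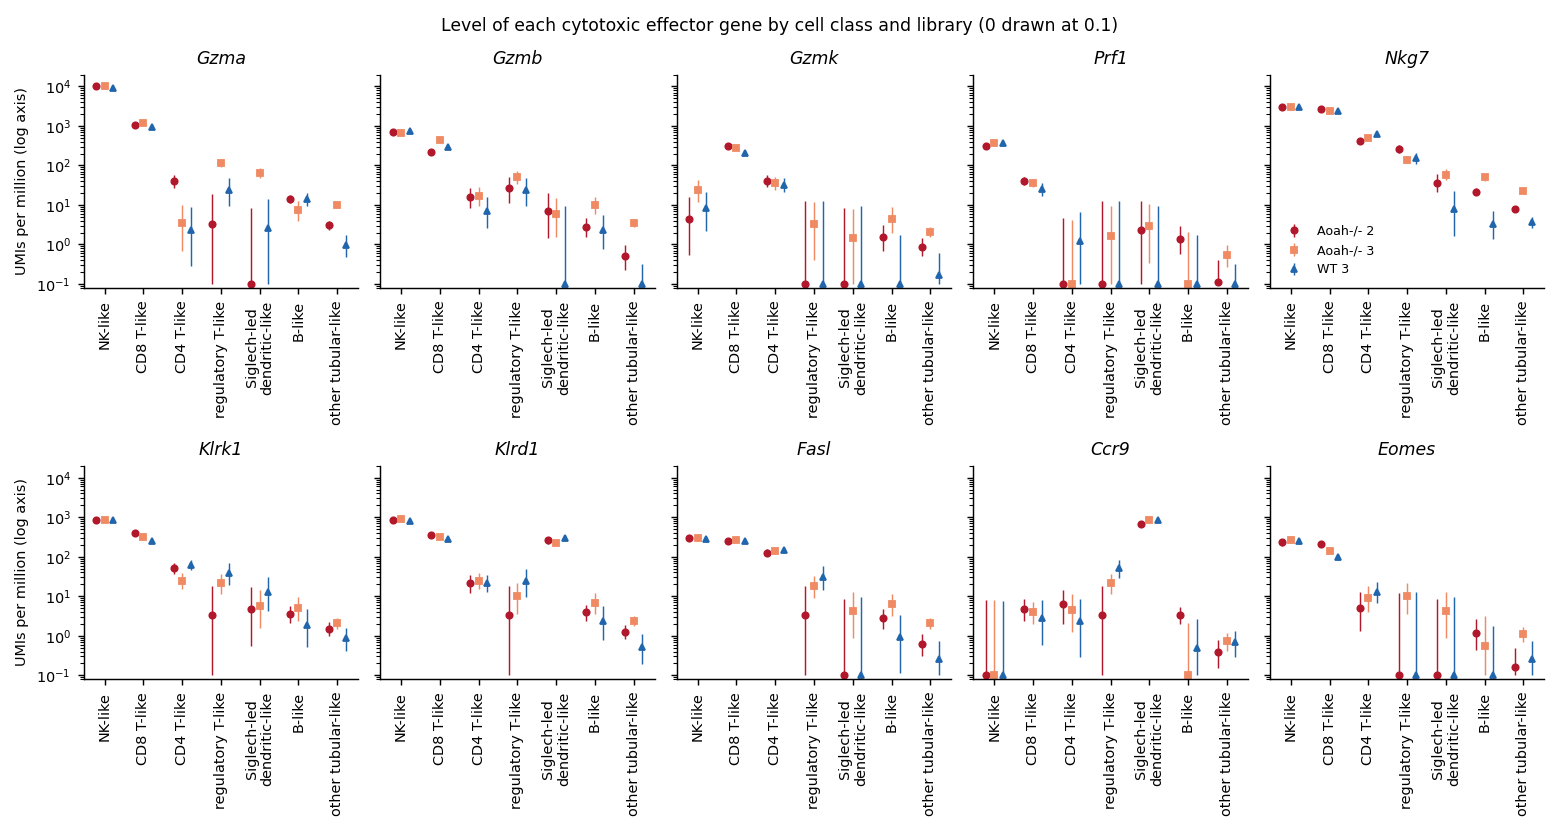
Level of each of the 10 genes (CPM, log axis, a level of 0 drawn at the bottom) in 7 classes of cell, 1 point per library with its exact Poisson 95% interval. Gzma, Gzmb, Prf1, Klrk1 and Klrd1 fall from NK-like to CD8 T-like cells, Gzmk is highest in CD8 T-like cells, and Ccr9 is highest in the dendritic cells led by Siglech.

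In NK-like cells none of the cytotoxic genes was past 2-fold between genotypes, and Gzma was modestly higher in both Aoah-/- libraries. A gene was called different between genotypes where its mean CPM in the Aoah-/- libraries was past 2-fold of WT with Aoah-/- 2 and Aoah-/- 3 on the same side and a level of at least 50 CPM in a group. This is a rule of size, not a test. Of the 10 genes, 8 reached 50 CPM in NK-like cells and 0 were past 2-fold, against 1.17% of the 2996 genes of that level called higher and 0.768% called lower. Of those 8, both Aoah-/- libraries were above WT for 4 and below for 3, against 32.0% and 37.3% of all genes of that level.

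Gzma was at 10230, 10335 and 8888 CPM in NK-like cells, from 4326 to 4757 UMIs per library. Both Aoah-/- libraries were above WT by a ratio of 1.16 (log2 0.21, SD 0.01), and the Poisson 95% intervals of 9936 to 10530 and 10043 to 10633 CPM stood apart from 8626 to 9157 CPM in WT. These intervals, like all intervals given here, cover counting error only and not the spread between mice. A Gzma UMI was found in 90.4%, 90.5% and 86.5% of NK-like cells, and the median cell with any held 27, 34.5 and 25 UMIs. After thinning to 1000 UMIs the shares were 87.7%, 86.1% and 82.1%, with Clopper-Pearson 95% intervals that overlapped, against at most 1.25% of B-like and tubular cells.

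The other granule genes of NK-like cells were lower in the Aoah-/- libraries by little or not at all. Gzmb was at 690, 682 and 760 CPM (log2 -0.15), and Prf1 at 305, 361 and 366 CPM (log2 -0.14, SD 0.17), with Aoah-/- 3 level with WT. Nkg7 was at 3056, 3020 and 3090 CPM (log2 -0.02). For each of these 3 genes the counting intervals of all libraries overlapped.

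The receptors, the death ligand and the transcription factor of NK-like cells were flatter still. Klrk1 was at 841, 858 and 838 CPM, Klrd1 at 847, 882 and 818 CPM, Fasl at 296, 291 and 284 CPM and Eomes at 234, 265 and 255 CPM. Their log2 ratios lay between -0.03 and 0.08, where the median of all genes was -0.02. Summed over the 10 genes, NK-like cells held 16503, 16718 and 15307 CPM (log2 0.12, SD 0.01), and Gzma alone made up 62.0%, 61.8% and 58.1% of that sum.

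Markers of other cells in the NK-like class moved between libraries and are given beside these values. The 10 macrophage markers summed to 285, 530 and 830 CPM, with none at 0 in all libraries, the 12 proximal tubule markers to 3577, 2240 and 2067 CPM, and the 8 cell division markers to 127, 193 and 236 CPM. Without NK-like cells holding 2 or more UMIs of B, macrophage or granulocyte markers, an alternative chosen after seeing the data, the log2 ratio of Gzma in NK-like cells was 0.12 in place of 0.21. The 14 NK markers, several of which also stand in the list of NK receptors, summed to 10279, 10828 and 11518 CPM.

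In CD8 T-like cells the cytotoxic genes were mostly somewhat higher in the Aoah-/- libraries, by less than 2-fold. Eomes, Klrk1 and Gzmk had the largest ratios among the genes at 50 CPM or more. Of the 10 genes, 8 reached 50 CPM and 0 were past 2-fold, against 0.511% of 2742 genes higher and 0.255% lower. In 8 of the 10 genes both Aoah-/- libraries were above WT, in 6 of those at 50 CPM or more, against 37.7% of all genes of that level, and in 0 were both below (36.8%). The 10 genes were measured in the same cells and against the same WT library, so their directions are not independent.

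Eomes was at 214, 140 and 98.6 CPM in CD8 T-like cells. Both Aoah-/- libraries were above WT, the ratio of their mean was 1.80 (log2 0.84, SD 0.43), and the counting intervals stood apart from WT, with Aoah-/- 2 also well above Aoah-/- 3. The share of CD8 T-like cells with an Eomes UMI was 33.9%, 24.6% and 21.7%, and 17.4%, 11.2% and 8.81% after thinning. It ranked 21st of the 2742 genes by this ratio, which describes these 3 libraries.

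Klrk1 was at 401, 316 and 252 CPM (ratio 1.43, log2 0.51, SD 0.24) and Klrd1 at 353, 316 and 276 CPM (ratio 1.21, log2 0.27, SD 0.11). For Klrk1 the intervals of both Aoah-/- libraries stood above WT, and for Klrd1 that of Aoah-/- 3 overlapped it. Gzmk was at 312, 273 and 209 CPM (ratio 1.40, log2 0.48, SD 0.14), again with intervals apart. A Gzmk UMI was present in 49.0%, 49.3% and 36.6% of CD8 T-like cells.

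Gzma in CD8 T-like cells was at 1087, 1188 and 935 CPM (ratio 1.22, log2 0.28, SD 0.09), with both Aoah-/- libraries above WT and their intervals apart from it. The share of cells that held it differed more than the level did, at 23.9%, 25.7% and 16.6%, or 19.7%, 19.1% and 12.8% after thinning, which left out 9, 0 and 3 cells. Median depth was 2385, 2925 and 2936 UMIs per CD8 T-like cell, so that depth was not higher in the libraries with the higher share. In WT the 5 cells with the most Gzma held 39.1% of the UMIs, against 13.3% and 16.3% in the Aoah-/- libraries. WT had 355 cells against 919 and 902, so these percentages cannot be compared directly. B-like and tubular cells had a thinned Gzma share of at most 1.25%.

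Gzmb was at 225, 452 and 286 CPM (log2 0.25, SD 0.71), with WT between the Aoah-/- libraries, so the difference between the Aoah-/- libraries exceeded that to WT. Nkg7, at 2694, 2380 and 2427 CPM (log2 0.06), and Fasl, at 258, 260 and 249 CPM (log2 0.06), differed little, and Nkg7 was found in 98.0%, 98.7% and 98.3% of CD8 T-like cells. Below 50 CPM, Prf1 was at 40.7, 35.2 and 24.9 CPM, from 94, 99 and 27 UMIs, and Ccr9 at 4.77, 3.91 and 2.76 CPM, from 11, 11 and 3 UMIs, with overlapping intervals for both. The summed level of the 10 genes was 5590, 5364 and 4759 CPM (log2 0.20, SD 0.04).

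Among markers of other cells in the CD8 T-like class, the 10 macrophage markers summed to 287, 213 and 102 CPM with none at 0, the same order as Eomes and Klrk1. The 12 proximal tubule markers, at 2211, 2035 and 1975 CPM, and the 8 cell division markers, at 113, 121 and 108 CPM, differed less. Without cells that held 2 or more UMIs of B, macrophage or granulocyte markers, Eomes was at 209, 142 and 95.8 CPM and Klrk1 at 410, 311 and 260 CPM in CD8 T-like cells, so the differences were about as large without those cells.

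**Figure D3:**
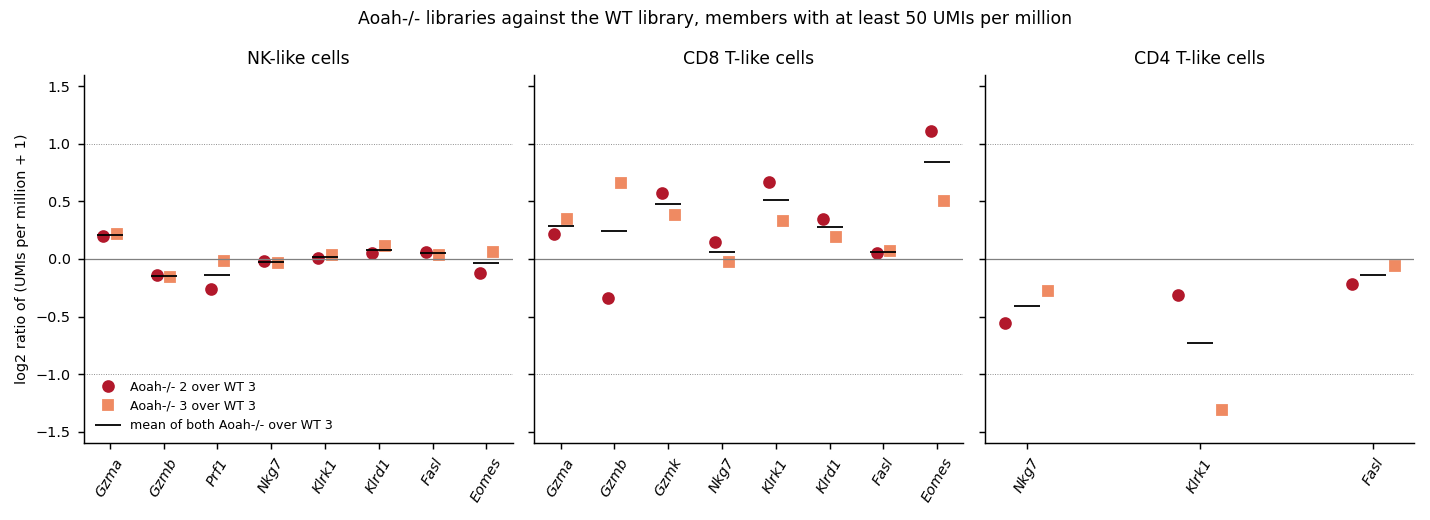
Ratio of the mean Aoah-/- level to WT (log2, y axis) for the genes of at least 50 CPM in NK-like, CD8 T-like and CD4 T-like cells, with a point for each Aoah-/- library against WT. Dotted lines mark 2-fold, which no mean ratio passes, and that of Eomes in CD8 T-like cells lies nearest to it at 0.84. Points of single libraries pass it for Eomes in CD8 T-like cells (Aoah-/- 2, 214 CPM against 98.6 CPM in WT). The same holds for Klrk1 in CD4 T-like cells (Aoah-/- 3, 24.9 CPM against 63.4 CPM in WT).

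CD8 T-like cells fell into 4 subclusters, and the libraries filled them unequally. The first, led by Pdcd1, Tox and Ccl4, genes known from repeatedly stimulated T cells, held 49.5%, 20.2% and 21.7% of each library's CD8 T-like cells. The second, led by Klrc1, Ly6c2 and Klra3, held 32.2%, 51.1% and 41.7%. The third, led by Itgae, Cd7 and Xcl1, held 4.13%, 22.6% and 27.6%, and the fourth, led by Cx3cr1, S1pr5 and Klrg1, genes of circulating effector cells, held 14.1%, 6.1% and 9.01%. Aoah-/- 2 thus stood apart in its Pdcd1-led and Itgae-led shares. With the subclusters of each library weighted alike, an alternative chosen after seeing the data, the log2 ratio in CD8 T-like cells was 0.58 for Gzma, 0.53 for Eomes, 0.32 for Gzmk and 0.40 for Klrk1. With the mixed subclusters counted as CD8 T cells, that of Gzma was 0.03.

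The 10 genes marked the subclusters differently. Gzma was at 4229 to 5908 CPM in the Cx3cr1-led subcluster and 695 to 1947 CPM in the Itgae-led one, and lower in the others. Gzmb was at 507 to 1016 CPM in the Itgae-led and 476 to 539 CPM in the Cx3cr1-led subcluster, ranges that overlap. Gzmk was at 280 to 329 CPM in the Pdcd1-led and 282 to 325 CPM in the Klrc1-led subcluster, ranges that overlap, and at 73.6 to 124 CPM in the Itgae-led one. In the Cx3cr1-led subcluster Gzmk spanned 96.8 CPM in WT to 405 CPM in Aoah-/- 3, across all of these ranges. Prf1 was at 77.1 to 110 CPM in the Cx3cr1-led subcluster and at most 40.3 CPM in the others. Eomes was at 130 to 249 CPM in the Pdcd1-led, 127 to 223 CPM in the Klrc1-led and 19.3 to 90 CPM in the Itgae-led subcluster. In the Cx3cr1-led one it was at 53.8 to 154 CPM. Because these cells were clustered on other genes of the same cells, the differences between subclusters are a description and not a test.

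In the Klrc1-led subcluster Gzma and Gzmb were past 2-fold between genotypes, and this subcluster was singled out after the values of all 4 had been seen. Its cells were defined by a single clustering, and the ratios were not recomputed under another. Gzma was at 592, 585 and 94.1 CPM, from 510, 871 and 45 UMIs. The Aoah-/- libraries were alike and their mean was 6.26 times WT (log2 2.63, SD 0.01), with intervals of 541 to 645 and 547 to 625 CPM against 68.6 to 126 CPM. It had the 4th highest ratio of the 2786 genes at 50 CPM or more in that subcluster, of which 1.36% were called higher and 0.395% lower. A Gzma UMI was found in 74 of 296, 114 of 461 and 13 of 148 cells, which is 25.0% (Clopper-Pearson 95% interval 20.2% to 30.3%), 24.7% (20.9% to 28.9%) and 8.78% (4.76% to 14.6%).

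After thinning to 1000 UMIs, which left out 0 cells here, the shares with Gzma in the Klrc1-led subcluster were 16.6%, 16.5% and 4.05%. Median depth was 2744.5, 3001 and 3069.5 UMIs. In the cells with any, the median was 3, 4 and 1 UMIs, and in WT the 5 cells with the most Gzma held 82.2% of its UMIs, 17 of them in 1 cell, against 27.8% and 27.3% in the Aoah-/- libraries. WT had 148 cells here against 296 and 461, so 5 cells are a larger part of it and these percentages cannot be compared directly. Both the share of cells with Gzma and the median amount in such cells were lower in WT.

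Gzmb moved in the same direction in the Klrc1-led subcluster, at 208, 219 and 64.8 CPM (ratio 3.29, log2 1.70, SD 0.05), with intervals apart. It ranked 8th of the 2786 genes, and its thinned share was 11.5%, 11.9% and 6.08%, where the intervals of the libraries overlapped. Klrd1 was at 406, 349 and 217 CPM (ratio 1.74) and Klrk1 at 432, 420 and 332 CPM (ratio 1.28), both with intervals apart from WT. Eomes was at 223, 181 and 127 CPM (ratio 1.58, log2 0.66). Gzmk, at 325, 308 and 282 CPM, Nkg7, at 2103, 2125 and 1944 CPM, and Fasl, at 255, 267 and 224 CPM, differed by ratios of 1.09 to 1.17, and Prf1 was at 32.5, 40.3 and 27.2 CPM. Ccr9 was at 5.80, 4.70 and 2.09 CPM. Both Aoah-/- libraries were above WT for all 8 of the 10 genes at 50 CPM or more in this subcluster, against 42.5% of all genes of that level, and also for Prf1 and Ccr9, which were under it. The 8 include Gzma and Gzmb, whose values were seen before this subcluster was singled out. The genes also share the same cells and the same WT library, so their directions are not independent. In each of the other subclusters some of the 10 genes lay below WT or on both sides of it.

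In the Pdcd1-led subcluster Gzma was at 253, 475 and 39.3 CPM, a ratio of 9.25 (log2 3.18, SD 0.64) and the highest of 2838 genes, of which 3.14% were called higher and 1.27% lower. The WT value rests on 8 UMIs in 2 of 77 cells, 7 of them in 1 cell, with an interval of 17 to 77.5 CPM. Gzma reached 50 CPM there only in the Aoah-/- libraries, which favoured its being called higher. In the Aoah-/- libraries 8.57% and 12.1% of cells held a Gzma UMI, and the 5 cells with the most held 60.6% and 62.8% of the UMIs, so the ratio depends on few cells in every library. Gzmk, at 319, 329 and 280 CPM, Nkg7, at 3121, 2748 and 3000 CPM, and Eomes, at 249, 130 and 172 CPM, differed little or not in 1 direction. Fasl was lower in both Aoah-/- libraries, at 259, 215 and 310 CPM. Klrd1 was at 260, 168 and 128 CPM, Klrk1 at 308, 105 and 182 CPM, Gzmb at 133, 355 and 187 CPM, and Prf1 and Ccr9 were at most 28.4 CPM.

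In the Cx3cr1-led subcluster, the smallest in WT with 32 cells, Gzma was at 5515, 5908 and 4229 CPM (ratio 1.35), with intervals apart. Gzmk was past 2-fold, at 346, 405 and 96.8 CPM (ratio 3.88, log2 1.94), and so was Eomes, at 123, 154 and 53.8 CPM (ratio 2.58, log2 1.35). The WT values rest on 9 Gzmk UMIs in 4 cells and 5 Eomes UMIs. In this small subcluster 8.87% of genes were called higher and 8.60% lower, and Gzmk ranked 74th and Eomes 165th of 3315 genes, so such ratios were common there. Klrk1 was at 723, 494 and 334 CPM, Klrd1 at 523, 694 and 689 CPM and Nkg7 at 3007, 2761 and 3432 CPM.

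In the Itgae-led subcluster Gzma was at 695, 1947 and 1831 CPM, with Aoah-/- 2, which had 38 cells there, below the others. Eomes was past 2-fold at 90, 53.3 and 19.3 CPM (ratio 3.71, log2 1.84), from 6 UMIs in WT and with overlapping intervals, beside 2.45% of genes called higher and 2.22% lower. Of the 8 genes at 50 CPM or more both Aoah-/- libraries were above WT for 3 here and below for 1, against 30.2% and 37.3% of all genes of that level. Eomes, among those above, reached that level only in the Aoah-/- libraries, which favoured its place above WT. Nkg7, at 2527, 2586 and 2494 CPM, and Klrk1, at 180, 197 and 148 CPM, changed little. Gzmb was at 507, 1016 and 618 CPM, with WT between the Aoah-/- libraries.

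**Figure D4:**
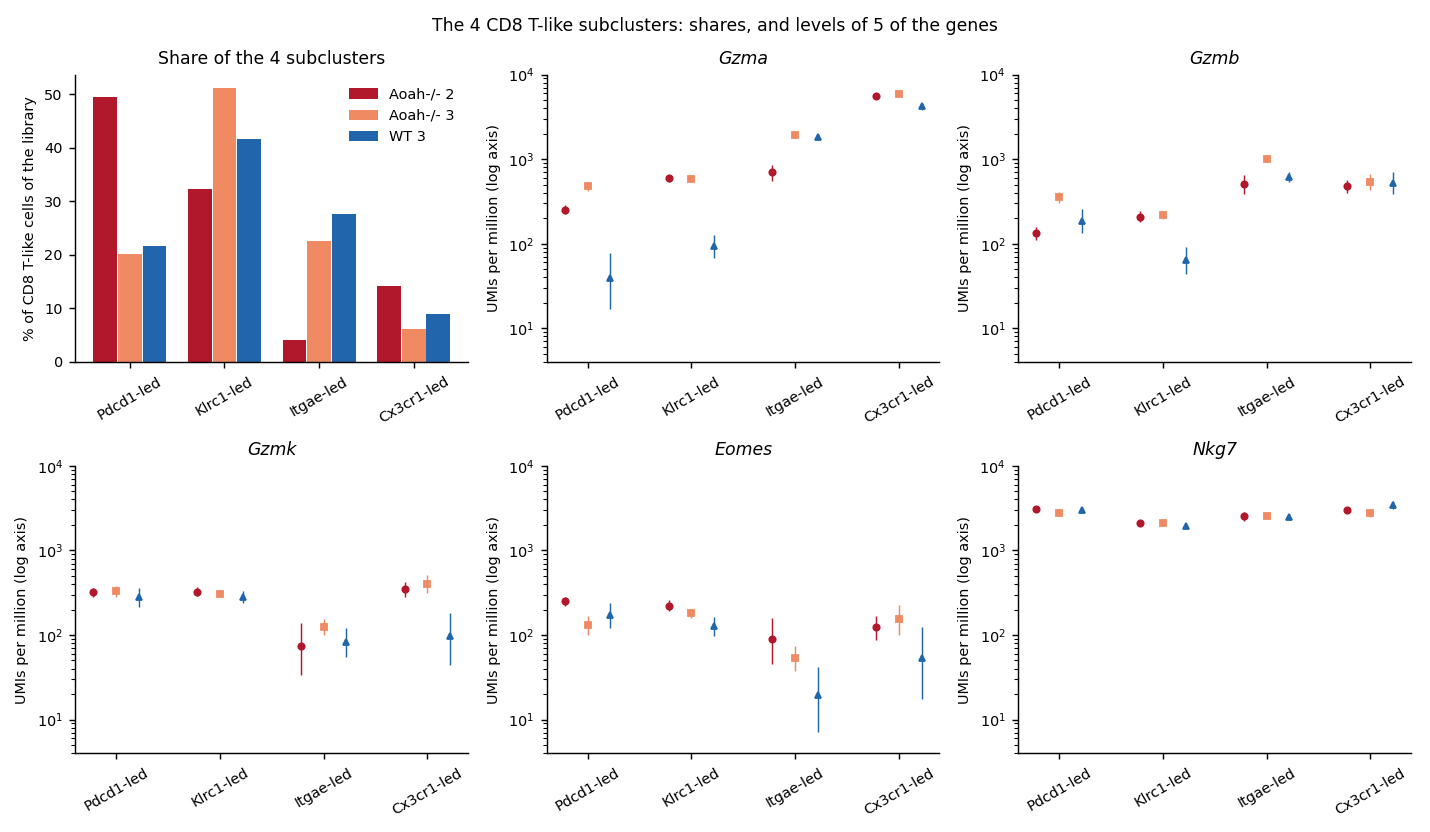
Share of CD8 T-like cells in each of 4 subclusters (%, bars) and levels of Gzma, Gzmb, Gzmk, Eomes and Nkg7 within them (CPM, log axis, with exact Poisson 95% intervals), 1 bar or point per library. Gzma in the Klrc1-led subcluster is at 592 and 585 CPM in the Aoah-/- libraries and at 94.1 CPM in WT. Nkg7 lies between 1944 CPM (Klrc1-led, WT) and 3432 CPM (Cx3cr1-led, WT).

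The other lists around these genes in the Klrc1-led subcluster are given for comparison. Of all 2786 genes at 50 CPM or more there, 1.36% were called higher and 0.395% lower. Of 24 other NK receptors and adaptors, 9 reached 50 CPM, of which 2 were past 2-fold higher, namely Klre1 (259, 274 and 83.6 CPM) and the effector-cell receptor Klrg1 (66.1, 71.2 and 31.4 CPM), and 1 lower, the activating receptor Cd226 (56.8, 98.1 and 167 CPM). Of 10 death ligands and cytokines 6 reached the level and 1 was higher, the chemokine Ccl3 (45.2, 112 and 18.8 CPM). Of 16 genes for granule loading and release 11 reached it and none was past 2-fold. The 10 macrophage markers summed to 246, 204 and 89.9 CPM in this subcluster, the same side as Gzma, and the 8 cell division markers to 95.1, 97.4 and 96.1 CPM. Without cells holding 2 or more B, macrophage or granulocyte marker UMIs, the log2 ratio of Gzma in the Klrc1-led subcluster was 2.64, as large as with them.

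In CD4 T-like cells the cytotoxic genes were low, and the 3 that reached 50 CPM in a group were somewhat lower in the Aoah-/- libraries. Klrk1, among them, had 41, 22 and 53 UMIs. Gzmk, under that level, had 33, 31 and 27 UMIs and was slightly higher in both Aoah-/- libraries, with overlapping intervals. Nkg7, Fasl and Klrk1 were the 3 of the 10 genes that reached 50 CPM, and 0 were past 2-fold, against 0.665% of 2855 genes called higher and 0.245% lower. Of those 3, both Aoah-/- libraries were above WT for 0 and below for 3, against 36.0% and 33.7% of all genes of that level. As a group, only WT reached that level for Klrk1 (63.4 CPM, against an Aoah-/- mean of 37.9 CPM). Its place below WT was thus favoured by the choice of that level. Of the 7 genes under it, 4 were above and 2 below in both, from few UMIs. The shares over all genes under that level were not computed, so these counts have no background.

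Nkg7 was at 417, 508 and 615 CPM in CD4 T-like cells (log2 -0.41, SD 0.20). Both Aoah-/- libraries were below WT and their intervals stood apart from it, while the share of cells with a UMI, at 46.8%, 49.3% and 50%, or 29.0%, 31.4% and 33.5% after thinning, overlapped. The thinned share in B-like or tubular cells was at most 4.2%, so the Nkg7 share of CD4 T-like cells lay above theirs. Fasl was at 126, 141 and 147 CPM (log2 -0.14), in 25.2%, 26.9% and 30.9% of cells, with intervals that overlapped. Klrk1 was at 50.8, 24.9 and 63.4 CPM (log2 -0.73, SD 0.70), with the Aoah-/- libraries further apart from each other than one of them was from WT. Over the alternative settings that kept all libraries, the log2 ratio in CD4 T-like cells ranged from -0.78 to -0.17 for Nkg7 and from -1.08 to -0.06 for Klrk1.

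Among the granzymes of CD4 T-like cells, Gzmk was present in 8.99%, 8.62% and 8.51% of cells, at 40.9, 35.2 and 32.3 CPM. Gzma was at 39.6, 3.40 and 2.39 CPM, but 26 of the 32 UMIs of Aoah-/- 2 came from 1 cell. Gzmb was at 16.1, 17 and 7.18 CPM, Klrd1 at 21.1, 24.9 and 21.5 CPM and Eomes at 4.95, 9.07 and 13.2 CPM. Prf1 had 1 UMI in WT and 0 in the Aoah-/- libraries, and Ccr9 had 5, 4 and 2 UMIs. The 10 genes summed to 723, 768 and 906 CPM (log2 -0.28, SD 0.06), and the 10 macrophage markers, of which 1 was at 0, to 284, 209 and 151 CPM, the opposite order.

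In regulatory T-like cells most of the 10 genes were near the limit of detection, but not Nkg7, which had 79, 85 and 44 UMIs. Prf1, Gzmk and Eomes were listed at 0 in Aoah-/- 2 and WT, where 3 counts are 9.99 and 10.3 CPM, and had 1, 2 and 6 UMIs in Aoah-/- 3. Nkg7 was at 263, 141 and 151 CPM, with WT between the Aoah-/- libraries. Gzma was at 3.33, 116 and 24.0 CPM, and 47 of the 70 UMIs in Aoah-/- 3 came from 1 cell. Klrk1, Klrd1 and Fasl had 1 UMI each in Aoah-/- 2 and were below WT in both Aoah-/- libraries, at 37.7, 24.0 and 30.9 CPM in WT. Gzmb was at 26.6, 49.7 and 24.0 CPM. The summed level was 306, 393 and 343 CPM (log2 0.03, SD 0.25).

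Of the 10 genes only Ccr9 was called by the rule in any of the 4 classes, though others under 50 CPM were past 2-fold. In regulatory T-like cells it was at 3.33, 21.6 and 51.4 CPM, from 1, 13 and 15 UMIs (log2 -1.96, SD 1.68), and in this class 3.59% of 3066 genes were called higher and 1.17% lower. Both Aoah-/- libraries were below WT, the intervals of Aoah-/- 3 and WT overlapped, and 14 of the 15 UMIs in WT came from 5 cells. In each of the 8 alternative settings that kept all libraries WT was at 32.8 to 48.5 CPM, under the 50 CPM of the rule, and the log2 ratio was -1.94 to -0.70. Of the 10 genes 3 reached 50 CPM in a group, and of these both Aoah-/- libraries were above WT for 0 and below for 1, against 39.1% and 33.2% of all genes of that level. That 1 gene, Ccr9, reached 50 CPM only in WT, so its place below WT was favoured by the choice of that level. Of the 7 under it, 1 was above and 3 below in both, again from few UMIs and without a computed share over all genes under that level.

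**Figure D5:**
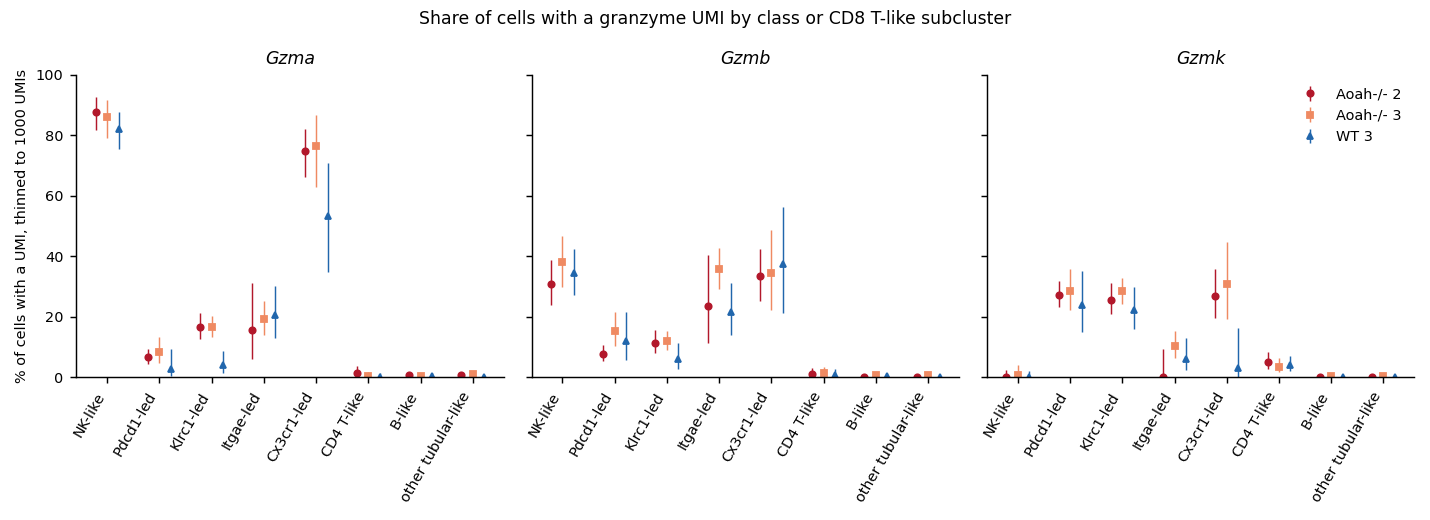
Share of cells with a UMI (%, y axis) of Gzma, Gzmb and Gzmk after thinning each cell to 1000 UMIs, by library, with Clopper-Pearson 95% intervals. The groups are NK-like cells, the CD8 T-like subclusters, and CD4 T-like, B-like and other tubular cells. In NK-like cells the Gzma share is 87.7% and 86.1% in the Aoah-/- libraries and 82.1% in WT, and in B-like cells it is at most 0.773%.

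Ccr9 belonged elsewhere. Dendritic cells led by Siglech, a gene of plasmacytoid dendritic cells, held it at 671, 841 and 862 CPM, in 77.9%, 83% and 87.1% of 86, 112 and 70 cells. Thinned to 1000 UMIs the shares were 39.5%, 45.5% and 62.1%, and WT was highest. Group 2 innate lymphoid-like cells had 2, 4 and 7 Ccr9 UMIs in 20, 25 and 8 cells, and the unnamed T or NK cells were at 7.65, 5.89 and 18.3 CPM. Klrd1 was also found outside lymphocytes, at 259, 220 and 301 CPM in the Siglech-led and 133, 133 and 129 CPM in the other dendritic cells, and T and NK clusters held 71.4%, 64.6% and 62.3% of its UMIs. Klrk1 was at 77.8, 103 and 88.2 CPM in the other dendritic cells, and in type 17 T-like cells at 26.9, 46.7 and 140 CPM, from 2, 10 and 39 UMIs.

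The levels of the genes in cells that should lack them differed by library. In tubular cells other than proximal tubule, Nkg7 was at 7.97, 22.3 and 3.71 CPM and Gzma at 3.04, 9.90 and 0.949 CPM, and in macrophage-like cells Gzma was at 6.64, 26.2 and 1.65 CPM. Aoah-/- 3 was highest and WT lowest in these, but in B-like cells Gzma was at 14.5, 7.34 and 13.8 CPM, with Aoah-/- 3 lowest. In the CD8 T-like cells the Gzma level of 935 to 1188 CPM and in the Klrc1-led subcluster that of 94.1 to 592 CPM lay above these values, while 4 of the 6 values of Gzma in CD4 and regulatory T-like cells were within their range.

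The genes that load, release and direct the granules were described from lists chosen for this pathway. For all these lists, the shares of all genes called higher and lower were 1.17% and 0.768% in NK-like cells. They were 0.511% and 0.255% in CD8 T-like, 0.665% and 0.245% in CD4 T-like and 3.59% and 1.17% in regulatory T-like cells. Of 7 other granzymes 0 reached 50 CPM in a group of NK-like or CD8 T-like cells by the mean of its libraries, and 4 were at 0 in every library of the NK-like class; Gzmm was at 50.3, 21.0 and 24.0 CPM in CD8 T-like cells. Of 16 genes for granule loading and release, 11 reached 50 CPM in NK-like cells, where 1 was higher (the granule membrane protein Cd63, 125, 86.9 and 51.4 CPM) and the median log2 ratio was -0.15, against -0.02 over all genes. Srgn, the proteoglycan that packs granules, was at 794, 945 and 964 CPM there. In CD8 T-like cells 11 reached it, 0 were past 2-fold and the median was 0.07, against 0.01 over all genes, with Srgn at 1114, 1159 and 1205 CPM and Serpinb9, an inhibitor of granzyme B, at 208, 183 and 148 CPM. In CD4 T-like cells 10 reached it and 2 were higher (Lyst and Lamp2), and in regulatory T-like cells 9 and 1 (Cd63).

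Of 10 death ligands and cytokines, 5 reached 50 CPM in NK-like cells and 1 was lower, the chemokine Xcl1 (465, 680 and 1192 CPM), which also served as an NK marker. Ccl5 was at 18469, 17578 and 12920 CPM and Ifng at 238, 252 and 220 CPM there. In CD8 T-like cells 6 reached it and 0 were past 2-fold, with Ifng at 387, 438 and 533 CPM, both Aoah-/- libraries below WT and thus on the other side from Gzmk and Eomes. In CD4 T-like cells 8 reached it and 1 was higher (Csf2, 196, 35.2 and 23.9 CPM), and in regulatory T-like cells 4 and 1 was lower (Ifng).

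Of 24 other NK receptors and adaptors, 20 reached 50 CPM in NK-like cells, where 1 was higher (Klra1, 118, 128 and 43.1 CPM) and the median log2 ratio was -0.03. The adaptor Tyrobp was at 2611, 3002 and 2753 CPM and Klre1 at 667, 780 and 734 CPM there. In CD8 T-like cells 9 reached it, with a median of 0.19, against 0.01 over all genes. Klre1, a partner of Klri receptors, was higher (245, 221 and 96.7 CPM), Tyrobp lower (47.7, 38.0 and 92.1 CPM), and Klrc1, which pairs with Klrd1, was at 198, 189 and 115 CPM. In CD4 T-like cells 2 reached it and 0 were past 2-fold, and in regulatory T-like cells 4 and 1 was lower (Tyrobp).

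Of 10 transcription factors of cytotoxic cells, 6 reached 50 CPM in NK-like and 6 in CD8 T-like cells and 0 were past 2-fold in either. Their medians were -0.04 and 0.22, against -0.02 and 0.01 over all genes. Tbx21, the T-box factor related to Eomes, was at 103, 104 and 101 CPM in CD8 T-like cells, and Runx3 at 266, 261 and 235 CPM. In CD4 T-like cells 6 reached it and 0 were past 2-fold, and in regulatory T-like cells 8 and 1 (Zeb2, from 2 UMIs in WT). Of 10 genes of naive and memory T cells 6 reached it in CD8 T-like cells and 0 were past 2-fold (median -0.02), and of 10 genes of tissue residence 10 and 0 (median -0.11), with Itgae at 27.7, 115 and 127 CPM, in the order of the Itgae-led subcluster's shares.

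On the side of possible target cells, of 11 ligands and receptors, the class I ligand H2-T23, which is bound by the Klrd1 product paired with Klrc products, was at 48.9, 52.3 and 43.2 CPM in proximal tubule-like cells. The FASL receptor gene Fas was at 77.9, 53.3 and 87.9 CPM in endothelial-like cells. Cdh1, the ligand of the Itgae and Klrg1 products, was at 205, 206 and 189 CPM in the other tubular cells.

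The 10 genes were also compared with all other genes by the Pearson correlation of log2(CPM + 10) over 60 points, 20 classes in each of 3 libraries. Points of 1 library share its depth and any free RNA and points of 1 class share its marker genes, so r is a description. Gzma was most like Klre1 (r = 0.95), Klrc2 (0.93) and Klrc1 (0.91), and Prf1 most like Klra7 (0.98), Klra9 (0.97) and S1pr5 (0.95). Eomes was most like Klrc2 (0.97), Samd3 (0.96) and Klre1 (0.96), and Gzmb most like Klre1 (0.88), Cd160 (0.88) and Klra9 (0.87). These leading genes are mostly NK receptors.

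Nkg7 was most like Xcl1 (0.94), Ms4a4b (0.94) and Tbx21 (0.93), and Fasl most like Ifng (0.94), Tbx21 (0.94) and Ms4a4b (0.93), genes shared by NK and activated T cells. Gzmk was less closely matched, by Cd160 (0.82), Gzmm (0.81) and Ifng (0.80). Klrk1 was most like Klrc1 (0.88), Klrc2 (0.88) and Tbx21 (0.87), and Klrd1 was like Cd7 (0.93) and Ly6c2 (0.87). Ccr9 was matched by D13Ertd608e (0.86), Atp2a1 (0.85) and Dntt (0.85), none of which was a gene of cytotoxic cells here.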

How the data were processed

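Kidney cells of Aoah-/- replicates 2 and 3 and of WT replicate 3 were profiled by droplet scRNA-seq on day 14 after FA. The authors deposited raw UMI counts per gene and called cell barcode for each library. The submitters' notes name Cell Ranger 3.1.0, STAR, Seurat 4.2.0 and the build mm10, while the matrix header names cellranger 6.1.2.

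Barcodes under 200 genes or over 50% mitochondrial UMIs were dropped. The 3 libraries were clustered together without batch correction (scanpy 1.11.5, igraph 0.11.9, 2000 variable genes, 50 principal components, 15 neighbours, Leiden resolution 1), without Aoah, the 10 genes described, the MHC class II genes and Cd74. The 6375 T and NK cells were clustered again with 30 components into 19 subclusters. NK, CD8, CD4 and regulatory T classes were named from Ncr1 and Klrb1c, Cd8a and Cd8b1, Cd4, and Foxp3 (at least 20% of the highest subcluster, with the markers of the other class under 10%). A subcluster stayed unnamed where leading genes of another class outweighed its own. This named 4040 cells and left 2335 unnamed. Doublets were not called.

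Raw counts were summed per library and class, since cells of a library are not replicates, and given as CPM with exact Poisson 95% intervals (scipy 1.17.1). Ratios are log2((mean Aoah-/- CPM + 1)/(WT CPM + 1)), and ratios printed without log2 are of the CPM. Genes at 50 CPM or more in a group were compared, and called past 2-fold with both Aoah-/- libraries on that side. With 1 WT library no test was run, and the labels do not say whether the Aoah-/- libraries came from separate experiments. Shares of cells were computed after thinning each cell to 1000 UMIs, with Clopper-Pearson intervals. Named genes were the 10 genes, the highest genes of each list and those called in it, and the 3 non-member genes with the highest r for each gene, of which 1 is not reported here. The genes and lists were chosen with earlier results of these data known.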

Additional observations from a re-analysis of the deposited data

Results flagged for a closer look

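For 2 genes and for the sum of the 10 genes, both Aoah-/- libraries were above WT in one class and below it in another. Only the side was required, not a size, and the share of all genes with such opposite sides was not computed. Within single classes, both libraries were above WT for 32.0% to 39.1% of genes at 50 CPM or more. They were below it for 33.2% to 37.3%, so opposite sides need not be particular to these genes. Klrk1 had a log2 ratio of 0.02 in NK-like and 0.51 in CD8 T-like cells, against -0.73 in CD4 T-like cells, where it rests on 22 to 53 UMIs per library. Fasl had 0.05 in NK-like and 0.06 in CD8 T-like cells, against -0.14 in CD4 T-like cells. The summed level had 0.20 in CD8 T-like and -0.28 in CD4 T-like cells. None of these differences between classes was tested, the classes share the same 3 libraries, and the ratios of Klrk1 in NK-like cells and of Fasl in NK-like and CD8 T-like cells turned negative in some alternative settings.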

How the results depend on the processing

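No paired analysis was possible because the groups share only 1 replicate number. The log2 ratio of the summed level in NK-like cells (0.12) was 0.070 with a 20% mitochondrial limit, 0.14 with 500 genes per cell, 0.062 at doubled resolution, 0.15 with the 10 genes among the variable genes, 0.16 with classes from markers cell by cell, and 0.089 as a mean over cells. For CD4 T-like cells (-0.28) the same settings except the mean over cells gave -0.19, -0.11, -0.15, -0.15 and -0.67, and a common UMI floor gave -0.48. For regulatory T-like cells (0.03), the 10 genes among the variable genes gave -0.38 and cell-by-cell classes 0.70. For CD8 T-like cells (0.20), leaving out cells with 2 or more UMIs of other classes gave 0.54, from 24, 28 and 12 cells; it left fewer than 10 cells per library in the other classes, so no value was computed there.

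The following alternatives were chosen after seeing the data. Leaving out such cells with proximal tubule markers allowed gave 0.040 for NK-like, -0.39 for CD4 T-like and 0.40 for regulatory T-like cells. CD8 T-like cells gave 0.26 without the Pdcd1-led subcluster and 0.26 with mixed subclusters. Gzma in the Klrc1-led subcluster (2.63) was recomputed only among the cells of that subcluster, without a new clustering. It was 2.68 for cells within the 20% mitochondrial limit. Without the 2% of cells of each library with the most Gzma it was 3.55, and this step left WT at 0 in the Pdcd1-led subcluster. In WT few cells held most of the Gzma UMIs, so this step takes a larger part from WT. The rise is thus no check of the ratio.

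Leaving out either Aoah-/- replicate gave 0.11 to 0.13 for NK-like, 0.17 to 0.23 for CD8 T-like, -0.32 to -0.24 for CD4 T-like and -0.16 to 0.20 for regulatory T-like cells, 2.62 to 2.64 for Gzma in the Klrc1-led and 2.65 to 3.56 in the Pdcd1-led subcluster. The cause of these shifts was not tested. The count of gene and class pairs with both Aoah-/- libraries above WT (17 of 40) was 12 to 18 in the other settings that cover all classes and 19 to 25 with 1 Aoah-/- library.

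The genes past the rule over the 4 classes (251) were 1090 at 1.5-fold and 1169 at a floor of 20 CPM. The 1.5-fold limit added Eomes, 1 of 8 cytotoxic genes compared (CD8, higher, among 65 of 2742 genes). It also added Klrk1, 1 of 3 (CD4, lower, among 42 of 2855), for which only the WT group reached 50 CPM. The 20 CPM floor added Gzma, 1 of 6 (CD4, higher, among 110 of 5629), with 26 of 32 UMIs of Aoah-/- 2 from 1 cell. That floor also added Klrk1, Klrd1 and Fasl (regulatory T, lower), for which only the WT group reached 20 CPM. With Ccr9, 4 of 7 were lower there and 0 higher, against 203 and 444 of all 5898 genes compared. Of 120 thinned shares, 93 exceeded those of B-like and tubular cells, and 92 to 104 did at other depths. Of 440 values of single genes, 128 moved by more than the SD between the Aoah-/- libraries. A change of sign was looked for only in the 1 pair called by the rule, Ccr9 in regulatory T-like cells, and 0 were found. In the other settings that cover all classes, 26 to 36 of the 40 gene and class pairs kept their side of WT or stayed mixed. The opposite side of WT was reached by 1 to 4 pairs, and the rest changed to or from mixed sides. In regulatory T-like cells and in the smaller subclusters, many values rest on few UMIs.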

Other observations

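Gzmb was also found outside lymphocytes, in granulocyte-like clusters, at 42.6, 15 and 249 CPM (Aoah-/- 2, Aoah-/- 3 and WT 3). The 66, 26 and 121 UMIs came from 5 of 830, 12 of 638 and 6 of 218 cells. Of these cells, 5, 2 and 6 also held a UMI of Mcpt8, Cpa3, Fcer1a or Ms4a2, genes known from basophils and mast cells, and 0, 7 and 0 held more than 10 UMIs of S100a8 or S100a9, genes of neutrophils. These genes were chosen after the values had been seen.

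The unnamed T or NK cells held 14.9%, 14.6% and 17.9% of all Gzma UMIs and 22.1%, 19.2% and 32.8% of those of Fasl. Gzma was at 360, 381 and 359 CPM there, Gzmk at 69.1, 66.9 and 21.5 CPM and Eomes at 43.5, 41.7 and 23.9 CPM, so that Gzmk and Eomes were on the same side of WT as in CD8 T-like cells while Gzma was level.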
